A study of Mus musculus with 12 samples.

Results

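The genes described here are 9 genes that make and use glutamine, glutamate, asparagine and proline: Glul, Asns, Glud1, Got1, Got2, Gpt2, Aldh18a1, Pycr1 and Oat. They were chosen by gene symbol, from a list drawn up with the folds of these same comparisons with mock already known, so their being here is no result. All 9 were found among the 21671 genes of the RNA-seq table. RNA was measured in 12 libraries of 3T9 MycER mouse fibroblasts, an immortalized embryonic line that constitutively carries MycER, a Myc protein switched on by 4-hydroxytamoxifen (OHT). Per the study's methods the cells also carried a viral vector from which doxycycline (dox) induces YAP S127A, an activated mutant of YAP, and they were serum-starved and highly confluent. The libraries formed 4 groups of 3, which were mock, OHT (400 nM), dox (2 µg/mL) and both agents together (OHT+dox). The labels give culture in medium with tetracyclin-free serum and added L-glutamine, and they do not state how long the treatment lasted. All groups carry the MycER construct, so MycER activation cannot be told apart from OHT itself. Likewise, no group used here received dox without the YAP vector, so YAP S127A cannot be told apart from doxycycline itself.

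Glutamine is the most abundant amino acid in culture medium and carries nitrogen for nucleotides and other amino acids. Glutamine synthetase (Glul) makes it from glutamate and ammonia, and asparagine synthetase (Asns) moves its amide nitrogen to aspartate. Glutamate enters the tricarboxylic acid cycle as 2-oxoglutarate, through glutamate dehydrogenase (Glud1) or through the transaminases of aspartate (cytosolic Got1, mitochondrial Got2) and alanine (mitochondrial Gpt2). Proline is built from glutamate by pyrroline-5-carboxylate synthase (Aldh18a1) and pyrroline-5-carboxylate reductase (Pycr1), and ornithine aminotransferase (Oat) feeds the same intermediate from ornithine. Asns is a classical target of ATF4, the transcription factor of amino acid shortage, and Myc is known to promote the use of glutamine.

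Promoter windows are printed first for 5 genes, Glul and Asns because their means varied most between the comparisons, and Aldh18a1, Got1 and Pycr1 because their windows hold a match to a motif that Myc or ATF factors are known to bind. The windows are RefSeq's, on GRCm38.p6, and run from 250 bases before to 50 bases after the annotated start. All 9 genes had a window. Capitals mark matches, on either strand, to CACGTG (the E-box bound by Myc and Max), GGAATG (the core bound by TEAD, the DNA partner of YAP), TGATGCAA (a composite site of C/EBP and ATF factors) and TGATGAAAC (the amino acid response element known from Asns, added after the windows had been read). The Glul window lies at chr1:153899679-153899978 (plus strand), the Asns window at chr6:7693160-7693459 (minus strand), the Aldh18a1 window at chr19:40588414-40588713 (minus strand), the Got1 window at chr19:43524556-43524855 (minus strand) and the Pycr1 window at chr11:120643699-120643998 (minus strand). Each is written 5′ to 3′ on the strand of the gene.

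Glul: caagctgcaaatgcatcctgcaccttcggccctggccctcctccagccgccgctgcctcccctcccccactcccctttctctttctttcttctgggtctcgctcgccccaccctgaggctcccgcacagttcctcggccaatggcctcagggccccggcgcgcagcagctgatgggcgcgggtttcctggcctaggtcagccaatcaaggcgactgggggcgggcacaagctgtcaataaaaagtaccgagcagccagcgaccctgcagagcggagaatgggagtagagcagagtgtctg

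Asns: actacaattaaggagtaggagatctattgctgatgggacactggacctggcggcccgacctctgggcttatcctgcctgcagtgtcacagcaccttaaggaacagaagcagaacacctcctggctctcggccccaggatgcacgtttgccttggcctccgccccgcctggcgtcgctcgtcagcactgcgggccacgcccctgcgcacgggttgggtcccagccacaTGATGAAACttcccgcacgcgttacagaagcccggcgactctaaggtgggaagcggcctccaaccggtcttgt

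Aldh18a1: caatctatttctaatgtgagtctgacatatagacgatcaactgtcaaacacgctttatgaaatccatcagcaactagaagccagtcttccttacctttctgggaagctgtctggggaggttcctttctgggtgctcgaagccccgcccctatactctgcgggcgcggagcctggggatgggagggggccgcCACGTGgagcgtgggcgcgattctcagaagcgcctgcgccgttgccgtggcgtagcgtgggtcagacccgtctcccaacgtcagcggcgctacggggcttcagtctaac

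Got1: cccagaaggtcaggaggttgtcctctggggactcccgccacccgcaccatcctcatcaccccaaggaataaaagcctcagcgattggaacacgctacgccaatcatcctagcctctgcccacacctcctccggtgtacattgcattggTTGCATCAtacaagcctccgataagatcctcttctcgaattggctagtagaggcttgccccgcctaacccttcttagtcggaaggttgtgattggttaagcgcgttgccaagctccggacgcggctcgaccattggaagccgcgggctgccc

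Pycr1: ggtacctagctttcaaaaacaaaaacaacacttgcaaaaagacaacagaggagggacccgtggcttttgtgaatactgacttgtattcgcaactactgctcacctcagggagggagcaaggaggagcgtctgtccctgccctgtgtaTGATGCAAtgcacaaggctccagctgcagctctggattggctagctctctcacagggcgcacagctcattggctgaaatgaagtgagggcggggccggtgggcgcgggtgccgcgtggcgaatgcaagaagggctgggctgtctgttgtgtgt

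The Aldh18a1 window held CACGTG, beginning 59 bases before the start, and no other window of the 9 did, where 7.15% of 32851 RefSeq windows hold it. The composite site was found for Got1 (102 bases before the start, on the opposite strand) and Pycr1 (103 bases before), and 0.895% of all windows hold it. Asns held TGATGAAAC 23 bases before the start, as do 0.247% of windows. The TEAD core was found for Oat alone, 221 bases before the start and on the opposite strand, against 14.7% of windows. The Glul, Glud1, Got2 and Gpt2 windows held none of these letters. A match describes the sequence and does not show that a factor binds there.

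Expression was available as the authors' means of normalized counts, each taken over the 3 libraries of a treated group together with the 3 mock libraries, with no value per library. The same mock libraries enter all 3 means. The mock part therefore drops out when 1 mean is subtracted from another, and the difference between 2 treated groups is 2 times the difference of their means. Taken at face value, the ratio of the means is the least fold by which these treated groups can differ, because the unknown mock level dilutes it. The bounds below, also those written as at least, leave out counting error and hold on the scale used, so another scale can give a lower fold. For Glul and Asns, the fold that holds if mock equals the lower group is given beside the ratio. The level in mock and the folds against mock are not given. These means carry no spread between libraries, so no difference below was tested or can be set against replicate error. The ± after a difference is its counting error, as 1 standard error at its largest possible value, and covers the counting of reads only.

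The 12 libraries were of similar depth, with size factors (relative depths) from 0.814 to 1.13. As a check of the labels, the YAP targets Ctgf, Cyr61 and Ankrd1 had means 1.42, 1.19 and 2.44 times as high in the dox comparison as in the OHT comparison, and the Myc targets Ncl and Polr3g 1.23 and 2.05 times as high in the OHT comparison as in the dox comparison, whereas another Myc target, Odc1, was 1.13 times as high with dox. Ankrd1 was low, with means of 19.3 in the OHT comparison and 47.0 in the dox comparison, both under 50. Fibroblast markers were abundant (7 of 8 at 487 or more, up to 6146 for Col1a2), and Thy1 was nearly absent, at 0.344 to 0.491. None of the markers of macrophages (0 of the 4 in the table, at most 41.1 for Cd68), epithelium (0 of 4, at most 2.15), endothelium (0 of 3, at most 3.50), adipocytes (0 of 3, at most 2.35) and hepatocytes (0 of 3, at most 0.177) reached a mean of 50.

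All 9 genes were expressed, with means over the comparisons from 187 normalized counts for Pycr1 to 1417 for Glud1. Among the 10402 genes with a mean of 50 or more in every comparison, 18.0% had a lower mean than Pycr1. This share was 50.4% for Got1, 51.3% for Glul and 54.8% for Asns, and from 71.3% (Gpt2) to 85.8% (Glud1) for the rest. Per kb of the longest coding transcript in GENCODE M21, Oat (592), Got2 (537) and Glud1 (418) had the highest levels, followed by Aldh18a1 (331), Asns (289), Got1 (253), Gpt2 (246), Glul (191) and Pycr1 (64.1). The order of neighbours in this series cannot be tested without values per library. The highest of the 3 means was 1.90 times the lowest for Glul and 1.36 times for Asns. For the other 7 genes this ratio lay between 1.04 (Oat) and 1.17 (Got1).

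**Figure D1:**
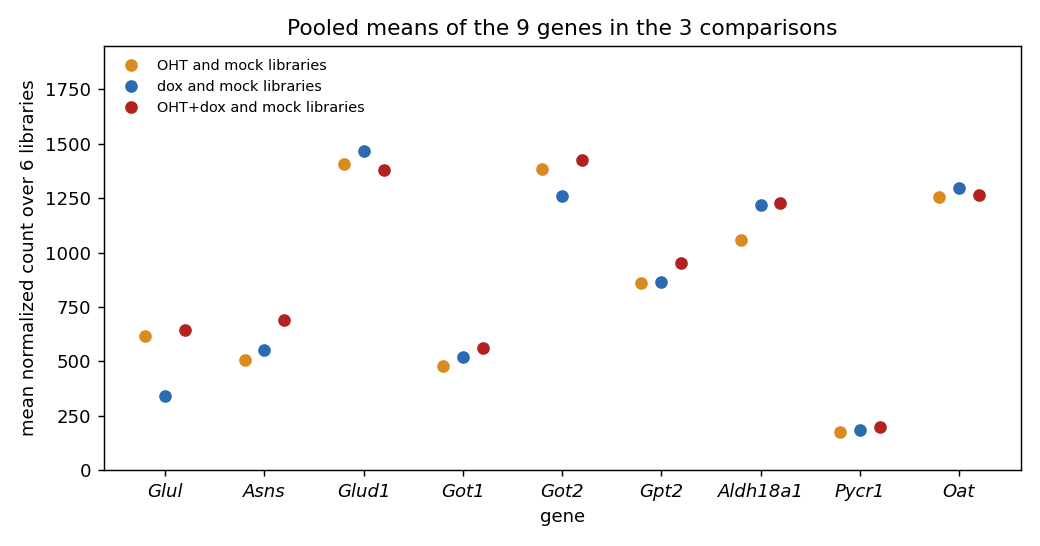
Mean normalized count (y axis) of each of the 9 genes (x axis) over the mock libraries and those of OHT (orange), dox (blue) or OHT+dox (red), 6 libraries per point, on the common scale. The blue point of Glul, at 341, stands apart from the orange and red ones at 617 and 646, and Asns is highest in red, at 689.

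Glul, the enzyme of glutamine synthesis, separated the groups by OHT. Its mean was 617 in the OHT comparison, 341 in the dox comparison and 646 in the OHT+dox comparison. Both groups that received OHT were thus far above dox, while they lay close to each other. The OHT group exceeded the dox group by 553 ± 25.3 normalized counts per library, at least 1.81-fold, and 2.62-fold if mock equals dox. With OHT+dox the excess over dox was 611 ± 25.6, at least 1.90-fold, and 2.79-fold if mock equals dox. Few genes had a larger ratio, namely 0.250% of the 10402 genes with a mean of 50 or more in every comparison for OHT over dox and 0.346% for OHT+dox over dox. OHT+dox exceeded OHT by 58.3 ± 29.0, a ratio of 1.05, and 21.9% of genes had a larger one. Because a level cannot be below 0, the Glul means also set limits on single groups: mock and dox were each at 681 normalized counts or less, OHT was at 553 or more and OHT+dox at 611 or more.

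Asns, the enzyme of asparagine synthesis, had its highest value with both treatments. Its mean was 507 in the OHT comparison, 551 in the dox comparison and 689 in the OHT+dox comparison. The OHT+dox group exceeded OHT by 364 ± 28.2 normalized counts per library, at least 1.36-fold, and 1.72-fold if mock equals OHT. It exceeded dox by 275 ± 28.7, at least 1.25-fold, and 1.5-fold if mock equals dox. The groups with a single treatment lay nearer to each other, with dox above OHT by 89.1 ± 26.6. Among all genes, 0.336% had a larger ratio of OHT+dox over OHT and 4.60% a larger ratio of OHT+dox over dox. OHT+dox stood at 364 or more and mock at 1013 or less.

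The 5 genes whose 3 means lay most like those of Asns, by the distance between log2 values centred on each gene's own mean, were Utp14b, Hk2, Baz1a, Slc7a5 and Dlk2, at distances of 0.02 to 0.05. Hk2 is a hexokinase of glycolysis and Slc7a5 a transporter of large neutral amino acids. Hk2 had means of 606, 639 and 803 in the OHT, dox and OHT+dox comparisons, and Slc7a5 of 852, 964 and 1151. The likeness rests on 3 values that share the mock libraries.

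The enzymes of proline synthesis did not share the pattern of Glul. Aldh18a1, which catalyses the committed step from glutamate, had means of 1056, 1217 and 1227 in the OHT, dox and OHT+dox comparisons, so both groups that received dox were above OHT and close to each other. Dox exceeded OHT by 322 ± 38.9 (at least 1.15-fold) and OHT+dox exceeded OHT by 342 ± 39.0 (at least 1.16-fold), while OHT+dox and dox differed by 20.3 ± 40.4, within the counting error. Its ratio of OHT over dox was among the lower ones, with 95.2% of genes above it. Pycr1, the last enzyme of the path, had means of 177, 186 and 198, and OHT+dox exceeded OHT by 42.7 ± 15.8 and dox by 24.4 ± 16.0. For Oat the means were 1254, 1299 and 1266, the narrowest range of the 9 genes. Its OHT+dox group differed from OHT by 23.5 ± 41.0 and was below dox by 66.1 ± 41.4.

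Among the genes that turn glutamate into 2-oxoglutarate, the transaminases and the dehydrogenase differed in order. Got1, the cytosolic aspartate transaminase, had means of 480, 522 and 562 in the OHT, dox and OHT+dox comparisons. OHT+dox exceeded OHT by 165 ± 26.4 and dox by 80.1 ± 26.9. Got2, its mitochondrial counterpart, had 1386, 1259 and 1428, and here dox was the lowest group, 255 ± 42.0 below OHT and 337 ± 42.3 below OHT+dox. The paralogs Got1 and Got2 thus had OHT and dox in opposite order. Gpt2, the mitochondrial alanine transaminase, had 862, 866 and 954, with OHT+dox 185 ± 34.8 above OHT and 178 ± 34.8 above dox and the single treatments 7.93 ± 33.9 apart. Glud1 had 1406, 1466 and 1379, and was the only one of the 9 genes at its lowest with OHT+dox, 174 ± 43.5 below dox.

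**Figure D2:**
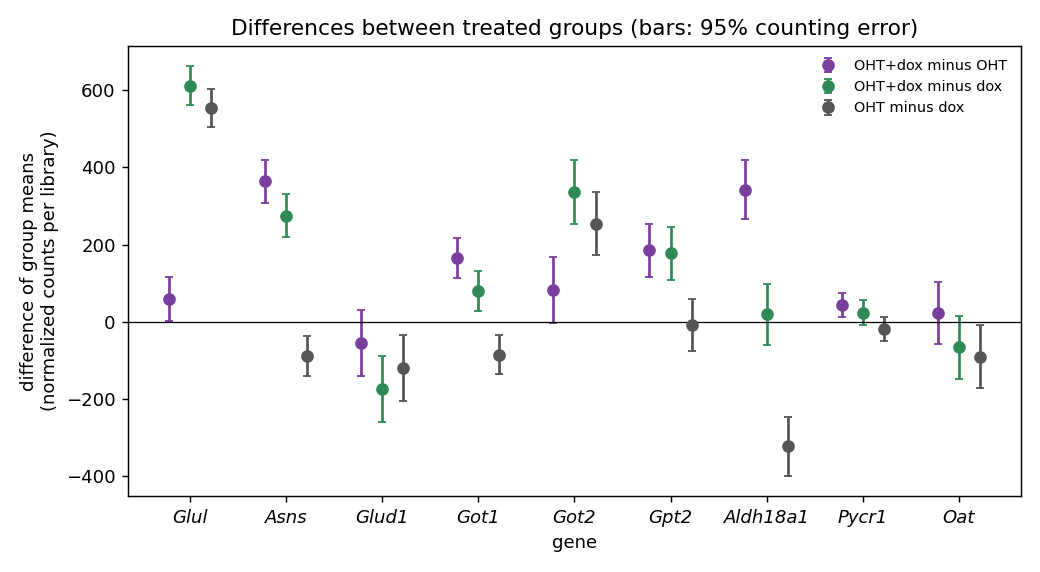
Difference between the means of 2 treated groups (y axis, normalized counts per library) for each gene (x axis), as OHT+dox minus OHT (purple), OHT+dox minus dox (green) and OHT minus dox (grey), with bars for the 95% interval of the counting error alone. Green and grey are far above 0 for Glul, purple and green for Asns, and purple is above and grey below 0 for Aldh18a1.

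A gene was counted as differing when the ratio of its means was at least 1.2 in either direction, a limit of size and not a test. OHT+dox was above OHT by this rule for 1 of the 9 genes, Asns, where 1.62% of the 10402 genes were, and below it for 0 of 9 (0.567% of genes). OHT+dox was above dox for 2 of 9, Glul and Asns (6.76% of genes), and below it for 0 (2.46%). OHT was above dox for 1 of 9, Glul (4.49%), and below it for 0 (3.02%). At a ratio of 1.1, OHT+dox was above OHT for 5 of 9 genes, namely Asns, Got1, Gpt2, Aldh18a1 and Pycr1, where 7.92% of genes were. OHT+dox was above dox for 4 (Glul, Asns, Got2 and Gpt2, with 17.2% of genes), OHT above dox for 2 (Glul and Got2, 14.1%) and OHT below dox for 1 (Aldh18a1, 9.83%). Since earlier folds of these comparisons were known when the list was made, nothing is read from these shares.

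OHT+dox was the highest of the treated groups for 7 of the 9 genes and dox for Glud1 and Oat. Among all genes, OHT+dox was the highest for 35.2% and dox for 37.3%. For Aldh18a1 and Pycr1, OHT+dox led dox by 20.3 (95% counting interval −58.8 to 99.5) and 24.4 (−6.99 to 55.7). For Got2, OHT+dox led OHT by 82.6 (−2.30 to 167), and by 22.8 with the means as deposited. These intervals include 0, as does that of the lead of dox over OHT+dox for Oat. The lead of OHT+dox over OHT for Glul was 58.3 (1.38 to 115), and 31.7 with the means as deposited. The median log2 ratio of the 9 genes was 0.15 for OHT+dox over OHT (8 of 9 above 0), 0.11 for OHT+dox over dox (7 of 9) and −0.06 for OHT over dox (2 of 9). Over all genes these medians were 0.0038, −0.00016 and 0.0069. For a single gene the 3 ratios share their means, so each follows from the other 2, which does not hold for the medians. With the means left on their deposited scale, Oat turned lower in OHT+dox than in OHT and Gpt2 higher in OHT than in dox, and Gpt2 also when the comparisons were scaled to equal sums.

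**Figure D3:**
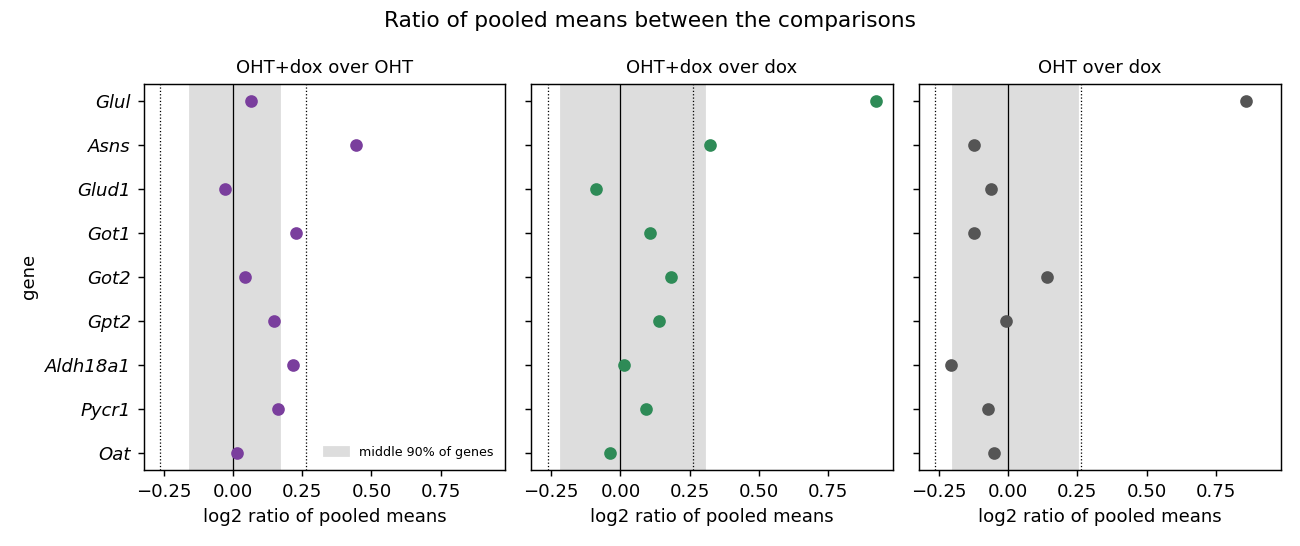
Log2 ratio of the means of 2 comparisons (x axis) for each gene (y axis), in 1 panel for each pair of treated groups. Grey bands hold the middle 90% of 10402 genes, dotted lines mark a ratio of 1.2 in either direction, and Glul at 0.92 and 0.86 and Asns at 0.44 and 0.32 are the points beyond the dotted lines.

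Beyond the 9 genes, 34 further genes of the handling of glutamine, glutamate, asparagine, aspartate and proline are described, from a list also drawn up with earlier results known. All were in the table and 24 had a mean of 50 or more in every comparison. Of these 24, OHT+dox was above OHT by the 1.2 rule for 2 (1.62% of all genes), above dox for 8 (6.76%), and OHT was above dox for 6 (4.49%), and none was below in any of the 3 pairs. Their median log2 ratios were 0.07, 0.12 and 0.06 in the same order, beside 0.0038, −0.00016 and 0.0069 over all genes.

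All 8 further genes past the rule passed it for OHT+dox above dox, so dox could not be their highest group. OHT+dox was also above OHT for each of them, which the rule itself favours, so nothing is read from it. By the rule, 6 of the 8 also had OHT above dox, as Glul did. These were Pfas and Ppat of purine synthesis (at least 1.4-fold and 1.30-fold higher with OHT than with dox), Cad, which starts pyrimidine synthesis (1.26), the glutamine carrier Slc1a5 of the plasma membrane (1.28), the mitochondrial glutamate carrier Slc25a22 (1.26) and the asparaginase Asrgl1 (1.4). Their ratios of OHT+dox over dox were 1.56 for Pfas, 1.44 for Ppat, 1.31 for Cad, 1.4 for Slc1a5, 1.39 for Slc25a22 and 1.5 for Asrgl1, and those of OHT+dox over OHT were below the limit, from 1.04 (Cad) to 1.11 (Pfas). Pfas, Ppat and Cad are 3 of the 6 listed enzymes that spend glutamine on nucleotides. The other 3 did not pass in any pair, with ratios of OHT over dox of 1.06 for Gmps of guanine nucleotide synthesis and of 0.931 and 0.997 for the CTP synthases Ctps and Ctps2. Ctps had a ratio of 1.16 for OHT+dox over OHT. Psat1, the transaminase of serine synthesis, and Bcat1, the cytosolic transaminase of branched-chain amino acids, were past the rule against both single treatments, as Asns was. OHT+dox exceeded OHT at least 1.29-fold for Psat1 and 1.30-fold for Bcat1, and exceeded dox 1.29-fold and 1.26-fold, while the log2 ratios of OHT over dox were 0.01 and −0.05.

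**Figure D4:**
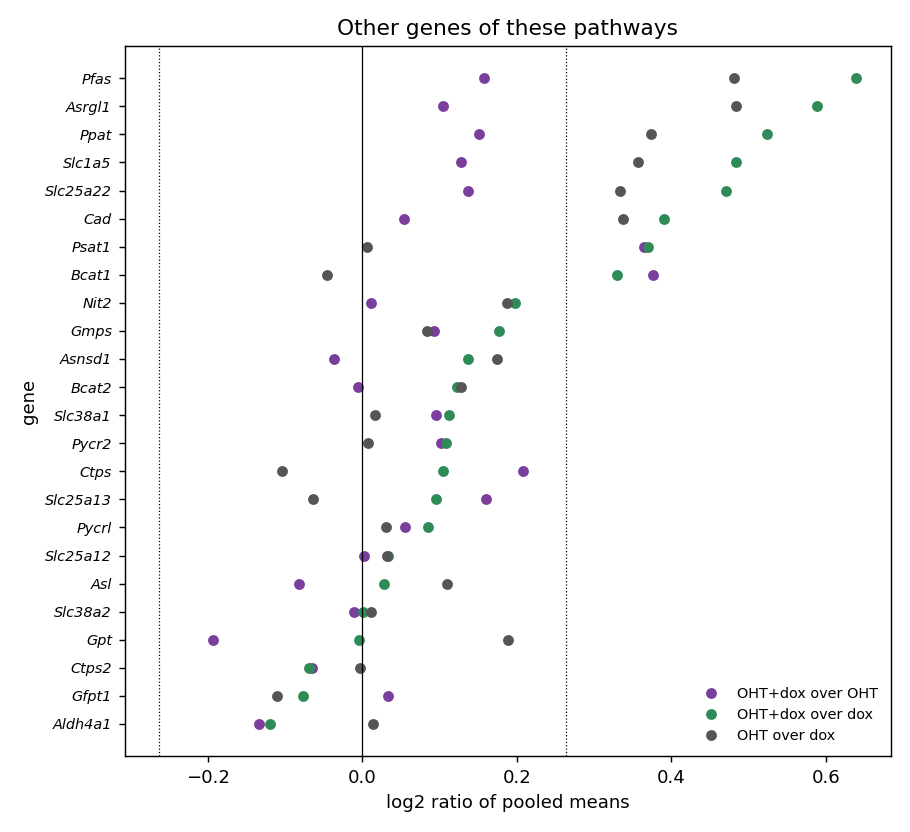
Log2 ratio of the means of 2 comparisons (x axis) for the 24 further genes (y axis, ordered by OHT+dox over dox), as OHT+dox over OHT (purple), OHT+dox over dox (green) and OHT over dox (grey), with dotted lines at a ratio of 1.2. Pfas, Asrgl1, Ppat, Slc1a5, Slc25a22 and Cad have green and grey points to the right of the dotted line, and Psat1 and Bcat1 purple and green ones.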

How the data were processed

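Libraries were made from total RNA with a TruSeq kit without the poly(A) step, by a protocol that does not mark strand, so overlapping and antisense genes cannot be told apart. According to notes on the processing by the submitters, reads were aligned to mm9 with TopHat2 2.0.8, and SAMtools, featureCounts 1.4.5-p1 and DESeq2 were also used. The labels and methods do not name the annotation. In the table the authors deposited there is 1 signal for each of 3 comparisons with mock, the mean over 6 libraries of counts divided by size factors. Its 9 columns of fold change, adjusted p and call are the authors' own results and were not used. Read totals are unknown.

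Size factors were read from genes with 1 read in 1 library. The OHT and dox means were divided by 1.02 and 1.00, the geometric mean of the ratios at genes read in mock alone, which the single mock libraries met within −0.373% to 0.568%. The steps were tested on simulated data with Python 3.11.15, numpy 2.4.6 and pandas 2.3.3. The members and lists were chosen with earlier results of these data known. Named genes were the 9 members, further genes past the 1.2 rule or among the 3 largest ratios of a pair, and the 5 most like Asns. 1 further gene of the list is not reported here. The means used allow no test. Whether libraries of a group came from separate cultures is not stated.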

Additional observations from a re-analysis of the deposited data

How the results depend on the processing

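Under the other scales tried (means as deposited, equal sums, a median ratio of 1), the counts among the 9 genes past the 1.2 rule were those reported. Minimum means of 10 or none could not change these counts, because the lowest mean of the 9 genes was 177 (Pycr1, OHT comparison). The shares over all genes were not recomputed under these scales or minimum means. The limit itself moved the counts among the 9 genes. At a ratio of 1.1, the numbers were 5 for OHT+dox above OHT, 4 for OHT+dox above dox, 2 for OHT above dox and 1 for OHT below dox. At 1.5 they were 0 for OHT+dox above OHT and 1 for OHT+dox above dox. Of 81 differences recomputed on another scale, 81 stayed within the 95% interval of the counting error around the value given. The largest shift was 60.6 normalized counts, and the direction changed for Oat (−30.6 for OHT+dox minus OHT, as deposited) and Gpt2 (26.9 as deposited and 4.92 at equal sums for OHT minus dox). No paired analysis was possible because the means pool the libraries of a comparison and the results come from no test, and for the same reason no replicate could be left out. Of the differences given, those of Aldh18a1 between OHT+dox and dox, of Gpt2 between OHT and dox and of Oat between OHT+dox and OHT were smaller than 1 counting standard error. Those of Pycr1 and Oat between OHT+dox and dox were larger, but their 95% counting intervals also included 0. The same held for Got2 and Glud1 between OHT+dox and OHT.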
